A study of Homo sapiens with 14 samples.

Results

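The genes ABTB1, NATD1 and PBXIP1 were followed through 7 cell lines of T-cell acute lymphoblastic leukemia (T-ALL) with and without AS605240, an inhibitor of the kinase PI3K. They were selected because their measured change with AS605240 was among the largest increases in these same arrays, so their changes are given as a description and carry no test. All probe sets that name one of the 3 symbols alone were taken, which gave 5 probe sets for ABTB1, 2 for NATD1 and 4 for PBXIP1, or 11 of the 54675 on the array. They are 3 of the 19775 genes that could be named from such probe sets.

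The lines ALL-SIL, CCRF-CEM, HPB-ALL and Jurkat, together with Molt-4, P12-ICHIKAWA and TALL-1, are established cultures derived from T-ALL. Each line gave 2 arrays (HG-U133 Plus 2.0), 1 from cells cultured for 6 h with AS605240 at the IC50 of that line and 1 from cells cultured for 6 h with vehicle. The dose therefore differed between lines, and no line had a repeated array. Vehicle and AS605240 cells of a line carried the same genetic lesions, and the error given below is the spread over the 7 lines.

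PI3K makes the lipid that activates AKT at the cell membrane, and active AKT keeps FOXO transcription factors out of the nucleus. When PI3K is blocked, FOXO factors can enter the nucleus and switch on genes for quiescence, receptor signalling and feedback. ABTB1 encodes a protein with ankyrin repeats and BTB domains, the latter a fold that many adaptors of CUL3 ubiquitin ligases carry. NATD1 encodes a small protein with an N-acetyltransferase domain. PBXIP1 encodes a protein that binds PBX homeodomain transcription factors and also estrogen receptors.

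In the human assembly GRCh38.p14, ABTB1 lies on chromosome 3 at chr3:127672952-127680926, NATD1 on chromosome 17 at chr17:21238870-21253410 and PBXIP1 on chromosome 1 at chr1:154944080-154956099. The 250 bases before the RefSeq start of NATD1 and of PBXIP1 are shown, since all 3 genes rose with the drug and 2 of them matched the RefSeq promoter table. Both are read 5′ to 3′ on the minus strand, at chr17:21253411-21253660 and chr1:154956100-154956349. Capitals mark the matches to CACGTG (the E-box), CCAAT (the CCAAT box, here read as ATTGG on the other strand) and GGGCGG (the GC box, here read as CCGCCC).
NATD1: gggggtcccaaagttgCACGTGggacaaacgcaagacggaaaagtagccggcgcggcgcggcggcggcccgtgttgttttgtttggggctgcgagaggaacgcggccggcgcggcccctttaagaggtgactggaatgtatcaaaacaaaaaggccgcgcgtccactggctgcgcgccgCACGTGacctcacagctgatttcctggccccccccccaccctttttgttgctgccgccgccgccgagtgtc
PBXIP1: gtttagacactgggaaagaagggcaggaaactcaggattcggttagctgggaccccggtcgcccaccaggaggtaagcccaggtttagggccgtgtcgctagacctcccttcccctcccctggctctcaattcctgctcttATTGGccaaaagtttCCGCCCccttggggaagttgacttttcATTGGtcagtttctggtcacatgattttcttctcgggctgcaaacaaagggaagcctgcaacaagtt

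The stretch before NATD1 held 2 E-boxes, whose first bases lie at -234 and -71 from the start, and CACGTG occurred in 6.34% of the 35116 RefSeq promoter windows of this length. The stretch before PBXIP1 held 2 CCAAT boxes at -109 and -67 (a motif in 32.0% of windows) with 1 GC box at -94 between them (in 42.6%). CACGTG was not in the stretch before PBXIP1, and neither CCAAT nor GGGCGG was in that before NATD1. The letters GTAAACA of the FOXO core, searched on both strands like all motifs here, were in neither stretch and in 2.98% of windows. Other forms of a FOXO site were not searched for. TATAAA (10.7% of windows), TGATTNAT of the PBX-HOX core (2.48%) and CCGGAAGT of the ETS core (3.42%) were also in neither. The GC content was 64.8% before NATD1 and 53.6% before PBXIP1, on either side of the median of 58.0% over all windows.

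Markers of T cells were present in every sample. All 14 T-cell markers were measured, and 10 of them (CD3D, CD3E, CD3G, CD247, CD5, CD7, LCK, TRAT1, ZAP70 and LAT) had a signal over 50 on all 14 arrays. The summed signal of all 14 markers was 8498 to 21156 with vehicle and 7849 to 19660 with AS605240. The summed signal of 7 B-cell markers was 50.5 to 429 with vehicle and 63.5 to 518 with AS605240, and none of them was over 50 on every array. Of 6 myeloid markers LYZ was over 50 on all 14 arrays. The summed signal of these 6 was 157 to 285 with vehicle and 164 to 269 with AS605240. Of 8 epithelial and fibroblast markers KRT8 and COL1A1 were over 50 on all 14 arrays. The summed signal of these 8 was 304 to 855 with vehicle and 384 to 739 with AS605240. By limma at an adjusted p under 0.05, 1 of 14 T-cell and 1 of 7 B-cell markers were higher, and 1 of each was lower. Over all genes 11.8% were higher and 7.03% lower. No marker of the other lists passed the adjusted p. The part of other cells in the results was not tested. The median signal of an array was 15.8 to 18.5. Vehicle arrays of P12-ICHIKAWA and TALL-1 had a correlation of 0.994 over genes, where any of the 20 remaining pairs had 0.908 to 0.953, so correlations over lines are also given with these 2 lines averaged as 1. Whole cultures were measured, so a rise in a few cells and a smaller rise in all cells cannot be told apart.

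ABTB1 showed the largest mean rise of all genes. Its brightest probe set, 229164_s_at, had a signal of 58.8 in CCRF-CEM, 66.1 in HPB-ALL, 21.5 in Jurkat, 21.7 in Molt-4, 73.8 in P12-ICHIKAWA, 45.9 in ALL-SIL and 61.3 in TALL-1 with vehicle. With AS605240 the signal was 160, 169, 82.7, 147, 288, 156 and 247 in the same lines. Jurkat and Molt-4 were the lowest vehicle arrays, and every AS605240 array lay above every vehicle array, the closest being Jurkat with the drug and P12-ICHIKAWA without it.

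The signal of ABTB1 thus rose 2.56-fold to 6.77-fold (median 3.85-fold). On the scale log2(signal + 16), which understates the change of dim probe sets and is used for all changes below, the level went from 5.97 ± 0.53 to 7.53 ± 0.52 (SD, n = 7 lines). The change was 1.56 ± 0.33 (SD, n = 7), or 2.95-fold. It was smallest in HPB-ALL at 1.18 and largest in Molt-4 at 2.11. Within each line it ranked between the 7th and the 31st largest increase of all genes, the 31st in HPB-ALL.

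NATD1 showed the next largest mean rise, and its spread between lines was the widest of the 3. Probe set 226657_at had a signal with vehicle of 20.1 in CCRF-CEM, 20.6 in HPB-ALL, 17.2 in Jurkat, 14.6 in Molt-4, 67.9 in P12-ICHIKAWA, 7.58 in ALL-SIL and 52.1 in TALL-1. With AS605240 it had 73.5, 59.9, 66.4, 102, 170, 17.8 and 160. All 7 lines were higher with the drug, but the groups overlapped, since ALL-SIL with AS605240 stayed below 4 of the vehicle arrays.

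The change of NATD1 was 1.24 ± 0.42 (SD, n = 7), or 2.36-fold, from 0.52 in ALL-SIL to 1.94 in Molt-4. In ALL-SIL it was only the 568th largest increase of the 19775 genes, while in the other 6 lines it ranked from 7 in CCRF-CEM to 59 in P12-ICHIKAWA. ALL-SIL also had the lowest signal, below the median of its array with vehicle, where the added offset shrinks a change most. The ratio of the unadjusted signals was 2.35 in that line, the smallest of a range that reached 6.94.

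PBXIP1 also rose in every line. Probe set 214177_s_at had 85.8 in CCRF-CEM, 78.8 in HPB-ALL, 40.0 in Jurkat, 50.7 in Molt-4, 125 in P12-ICHIKAWA, 49.2 in ALL-SIL and 110 in TALL-1 with vehicle. With AS605240 it had 174, 144, 117, 205, 267, 117 and 264. The groups overlapped because P12-ICHIKAWA with vehicle stood above Jurkat and ALL-SIL with AS605240. The change was 1.12 ± 0.31 (SD, n = 7), or 2.17-fold, from 0.76 in HPB-ALL to 1.73 in Molt-4.

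**Figure D1:**
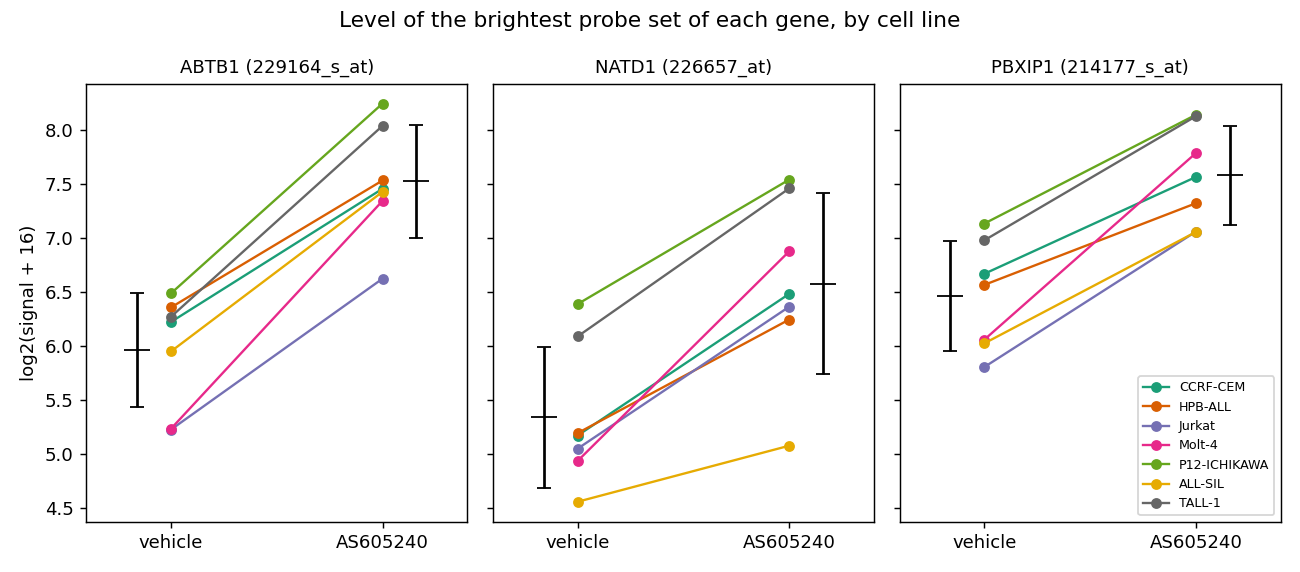
Level of the brightest probe set of each gene as log2(signal + 16) with vehicle and with AS605240, 1 line per cell line, with the mean and SD over the 7 lines in black. Every line rises in each panel, and the flattest is NATD1 in ALL-SIL (0.52).

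The name strongest induced genes fitted ABTB1 best and was not exact for PBXIP1. By mean change over all genes, ABTB1 was 1st, NATD1 2nd and PBXIP1 5th, after RGS1 and CCNG2. With an offset of 4 their ranks were 1, 3 and 12, and with an offset of 64 they were 2, 29 and 15. RGS1, a regulator of G-protein signalling, was higher in 6 of 7 lines. CCNG2 encodes an unusual cyclin of resting cells and rose by 1.15. Next after PBXIP1 (1.117) among genes that were called and higher in all lines were the long non-coding RNA CARINH (1.099), YPEL5 (1.10), a subunit of a ubiquitin ligase, and ANXA2R (1.09), the annexin A2 receptor.

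The 11 probe sets did not move alike. A total of 7 passed an adjusted p under 0.05 (limma, Benjamini-Hochberg) and a fold change over 1.5 upwards, against 0.926% of all probe sets with a gene symbol, and this contrast is the one the genes were chosen on. These were 2 of 5 for ABTB1, 1 of 2 for NATD1 and 4 of 4 for PBXIP1. The same 7 were higher in every line, as were 9.13% of all probe sets with a gene symbol. In 2 of the 11, both of ABTB1, all AS605240 arrays lay above all vehicle arrays. This held for 0.198% of all probe sets with a gene symbol. All these counts describe genes chosen on the same contrast and are no test of them.

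For ABTB1, 226442_at rose beside the brightest one. Its signal went from between 4.29 and 22.0 with vehicle to between 25.7 and 76.6 with AS605240, with no overlap. The change was 1.26 ± 0.37 (SD, n = 7), from 0.90 to 1.86, and across lines it followed that of 229164_s_at (r = 0.83, n = 7 lines of which 2 are nearly alike). The other 3 probe sets of ABTB1 were flat. Their changes were 0.066 ± 0.21 for 229162_s_at, -0.034 ± 0.12 for 228848_at and 0.11 ± 0.19 for 242567_at (SD, n = 7), with 4, 4 and 5 of 7 lines higher.

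The flat probe sets of ABTB1 differed in signal, and whether signal level bears on their flatness was not tested. Probe set 228848_at had 14.7 to 22.8 with vehicle, close to the array medians. The signal of 229162_s_at was 23.1 to 47.8 with vehicle, above the array medians, while 242567_at stayed between 2.69 and 9.95 on all arrays, below every array's median. Vehicle levels of 229162_s_at and 229164_s_at ran in opposite order across lines (r = -0.68, n = 7). Where each probe set lies along the transcripts is not analysed here, so which transcript forms rose was not tested.

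NATD1 had 1 flat probe set, 1553872_at, with a change of -0.097 ± 0.20 (SD, n = 7) and 3 of 7 lines higher. Its signal of 13.2 to 22.9 was close to the array medians. For PBXIP1 all 4 probe sets rose in all 7 lines, by 1.12 for 214177_s_at, 1.01 ± 0.17 for 212259_s_at, 0.84 ± 0.37 for 207838_x_at and 0.63 ± 0.29 for 214176_s_at. Changes of the 2 brightest matched closely across lines (r = 0.97, n = 7), and their vehicle levels did too (r = 0.98). The smallest single change was 0.14, for 214176_s_at in CCRF-CEM.

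Such disagreement was common among genes that rose. Of the 211 genes called higher by their brightest probe set, 125 had at least 2 probe sets. Every probe set was called in 19 of these (15.2%), PBXIP1 among them. Only the brightest was called in 79, NATD1 among them.

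**Figure D2:**
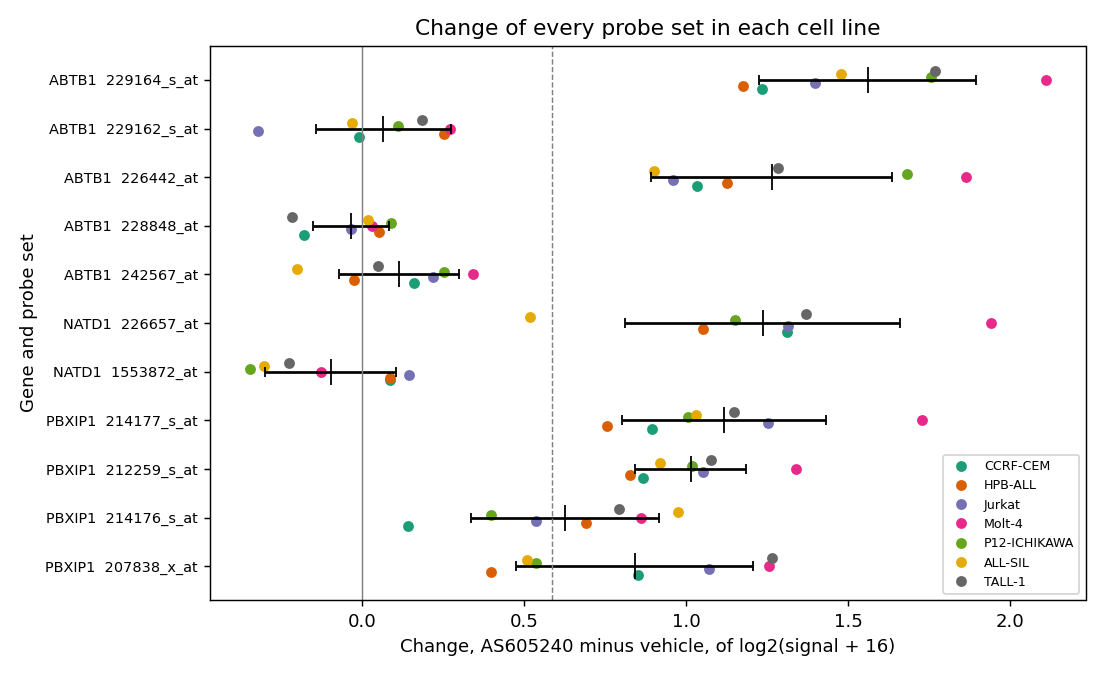
Change with AS605240 of each of the 11 probe sets in each cell line, on the scale log2(signal + 16). Black bars give the mean and SD over 7 lines, the solid line is 0 and the dashed line a fold of 1.5. The 4 probe sets of PBXIP1 stand right of 0 in all lines, while 3 of ABTB1 and 1 of NATD1 scatter around it.

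By the mean of both arrays of a line, P12-ICHIKAWA and then TALL-1 had the highest level of all 3 genes, and these are the lines whose arrays were nearly alike. The order of the other 5 lines differed between the genes, with Molt-4 at place 6 for ABTB1, 3 for NATD1 and 5 for PBXIP1. The lowest was Jurkat for ABTB1 (5.93) and PBXIP1 (6.43), and ALL-SIL for NATD1 (4.82). Neighbours in the order mostly did not differ beyond the spread that remained after line and treatment (SD 0.24 for ABTB1, 0.30 for NATD1 and 0.22 for PBXIP1). The exceptions, over 2 of these SDs, were both of NATD1, between TALL-1 and Molt-4 (0.87) and between Jurkat and ALL-SIL (0.89).

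Vehicle levels across lines correlated at r = 0.86 for ABTB1 and PBXIP1, 0.87 for NATD1 and PBXIP1 and 0.58 for ABTB1 and NATD1 (n = 7). With P12-ICHIKAWA and TALL-1 averaged these were 0.85, 0.81 and 0.48 (n = 6). The changes correlated at 0.82, 0.71 and 0.58 for the same pairs (n = 7), or at 0.87, 0.70 and 0.60 with the 2 lines averaged (n = 6), and Molt-4 had the largest change of all 3 genes. These values describe few lines that share arrays between the genes.

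Among the 9185 other genes with a signal over 50 on at least 7 arrays, those whose pattern over the 14 arrays was most like ABTB1 were CCNG2 (r = 0.966), HBP1 (0.964), a repressor that slows entry into the cell cycle, and PBXIP1 (0.938). For NATD1 they were PBXIP1 (0.925), TIMELESS (0.923), a replication fork protein, and SEMA4B (0.914), a semaphorin. For PBXIP1 they were CCNG2 (0.946), ABTB1 (0.938) and TIMELESS (0.938). These correlations include the treatment difference that the genes were chosen on.

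Over the 7 vehicle arrays alone the nearest genes were others. They were CEP164 (0.980), DYM (0.976) and DEPDC1 (0.975) for ABTB1, SDCCAG8 (0.981), MAPRE1 (0.965) and KDM5B (0.959) for NATD1, and XPO1 (0.981), IFNA16 (0.979) and PUM2 (0.979) for PBXIP1. With 7 arrays, of which 2 are nearly alike, high values are easily reached among so many genes.

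The genes next to the 3 on their chromosomes were not used in choosing them and were tested with all genes. Of 30 neighbours, the nearest 5 tested on each side, 2 were higher at an adjusted p under 0.05 (limma, Benjamini-Hochberg), against 11.8% of all genes, and 2 were lower, against 7.03%. None reached a fold change of 1.5.

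PODXL2, a sialomucin gene 150 bases from ABTB1, changed by 0.029 (limma adjusted p = 0.896) from a low level. On the other side MGLL, the monoglyceride lipase, changed by 0.082 (adjusted p = 0.383). Farther off RUVBL1, an ATPase of chromatin remodellers, was lower by limma, with a change of -0.39 (adjusted p = 3.70e-04).

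Beside NATD1, TMEM11, a mitochondrial membrane protein, changed by -0.15 and LINC02693 by 0.063 (limma adjusted p = 0.0939 and 0.553). USP22, a deubiquitinase of the SAGA complex, was higher by 0.27 (adjusted p = 0.00268). The outer 4 neighbours on one side lie 5818978 to 6377778 bases away and are near only in the order of tested genes.

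Beside PBXIP1, PMVK, an enzyme of the mevalonate pathway, changed by -0.043 and PYGO2, a Wnt pathway cofactor, by 0.13 (limma adjusted p = 0.776 and 0.200). SHC1, an adaptor of receptor tyrosine kinases 6199 bases away, was higher by 0.38 (adjusted p = 3.84e-04). FLAD1, which makes FAD, changed by -0.39 (adjusted p = 0.00359).

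**Figure D3:**
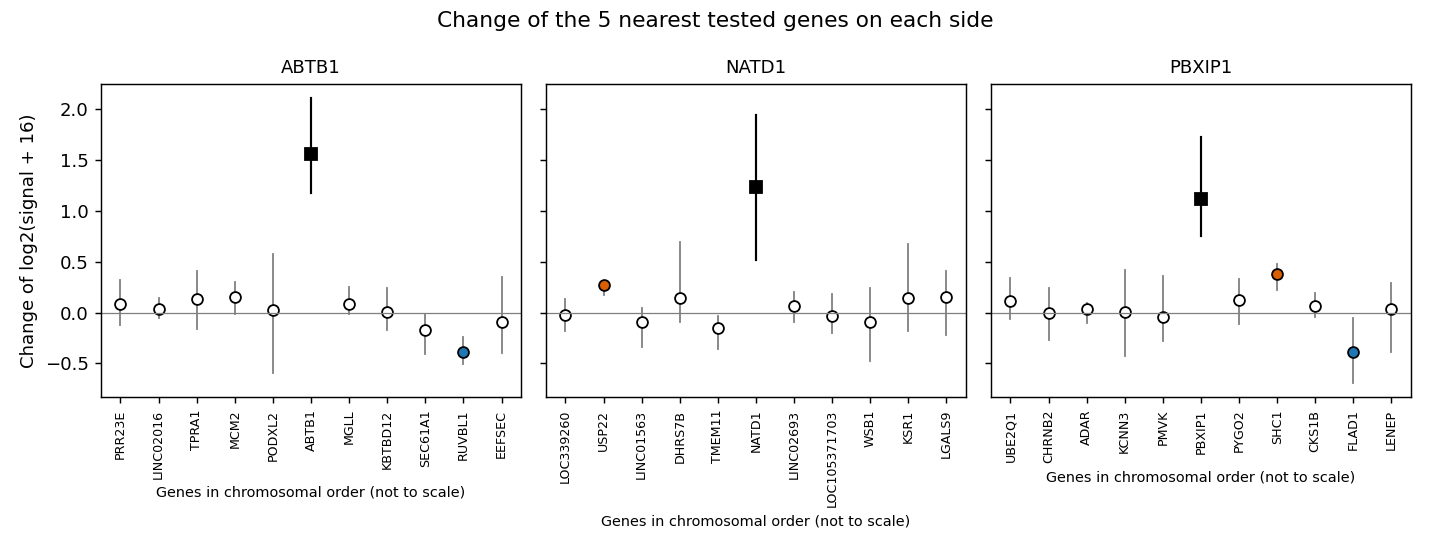
Mean change with AS605240 on the scale log2(signal + 16) of ABTB1, NATD1 and PBXIP1 (black squares) and of the 5 nearest tested genes on each side, with bars from the lowest to the highest line. Orange marks genes higher and blue genes lower at an adjusted p under 0.05. No neighbour's mean comes near that of the gene in the middle, the highest being SHC1 at 0.38.

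The scale of these calls depends on how the arrays are centred. Polyadenylated spike-in RNAs are added to samples in the laboratory. Their probe sets, taken with those for Trpn, changed by 0.20 ± 0.15 (SD, n = 7 lines, 6 higher) between the arrays of a line. Without those for Trpn the change was 0.22 ± 0.17 (SD, 7 of 7 higher). Whether a Trpn RNA was added is not given in the sources. Centring on the set with Trpn moved the median change of all genes from 0.013 to -0.19. The calls past both thresholds went from 211 higher and 100 lower to 61 higher and 439 lower. ABTB1, NATD1 and PBXIP1 then changed by 1.36, 1.03 and 0.91. Because this centring subtracts the same amount from every gene of an array, it cannot alter their ranks by mean change. At an adjusted p under 0.05 alone, 2.95% of all genes were then higher and 39.0% lower. Quantile normalization gave 167 higher and 112 lower. The groups of ABTB1 overlapped under both of these scalings.

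No relative of ABTB1 in the list moved past a fold change of 1.5. Of 55 tested genes for BTB adaptors and CUL3 ligases, 12 were higher and 5 lower at an adjusted p under 0.05 (limma), or 21.8% and 9.09% against 11.8% and 7.03% of all genes. The median change was 0.066 against 0.013 over all genes. The smallest p was that of KCTD18 (0.50, adjusted p = 1.05e-04), and ABTB2 and ABTB3, which share the name of ABTB1, changed by 0.036 and 0.20 (adjusted p = 0.806 and 0.192). Centred on spike-ins the split turned to 1 higher and 18 lower, where 2.95% and 39.0% of all genes were.

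The list for relatives of NATD1 held GNAT acetyltransferases, auxiliary subunits such as NAA15 and NAA25, and HGSNAT, which is of another family. Of its 26 tested genes, 7 were higher and 6 lower by limma at an adjusted p under 0.05. These are 26.9% and 23.1%, against 11.8% and 7.03% of all genes. The median change was 0.035. SAT2, a thialysine acetyltransferase, was higher by 0.62 (adjusted p = 0.00232), and NAA15, the ribosome-binding subunit of an N-terminal acetyltransferase, changed by -0.64 (adjusted p = 3.81e-04). Centred on spike-ins, 3 were higher and 10 lower, where 2.95% and 39.0% of all genes were.

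Of 20 tested PBX, MEIS and HOX genes, partners of PBXIP1 and their relatives, 4 were higher and none lower by limma at an adjusted p under 0.05, where 11.8% and 7.03% of all genes were. The median change was 0.016. At an unadjusted p under 0.05, 4 were higher and 2 lower. The 4 were PBX4 (0.41, adjusted p = 0.00211), TGIF1 (0.34, adjusted p = 8.78e-04), HOXB7 (0.31, adjusted p = 0.0366) and PBX3 (0.26, adjusted p = 0.00750), all homeodomain factors and none past a fold change of 1.5. PBX2 changed by -0.058 (adjusted p = 0.744). Centred on spike-ins, none was higher and 6 were lower, where 2.95% and 39.0% of all genes were.

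Targets of FOXO and feedback genes of PI3K belong to the pathway the drug acts on. Like the lists above, this one was written with earlier results of these data known, so its counts are a description. Of 47 tested, 27 were higher and none lower by limma at an adjusted p under 0.05, against 11.8% and 7.03% of all genes, with a median change of 0.33. At an unadjusted p under 0.05, 32 were higher and 2 lower. Beside CCNG2 and YPEL5, the largest were KLF2 (1.05), a factor of T-cell quiescence, YPEL2 (0.96) and IRS2 (0.83), an insulin receptor substrate. They were followed by RAG1 (0.76), the recombinase of antigen receptor genes. KLF2 was higher in 6 of 7 lines, with a smallest change of -0.22, and the others named here in all 7. FOXO1 itself was higher by 0.43 (adjusted p = 9.14e-04) and FOXO3 by 0.19 (adjusted p = 0.0238). Centred on spike-ins, 16 were higher and 5 lower, where 2.95% and 39.0% of all genes were.

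**Figure D4:**
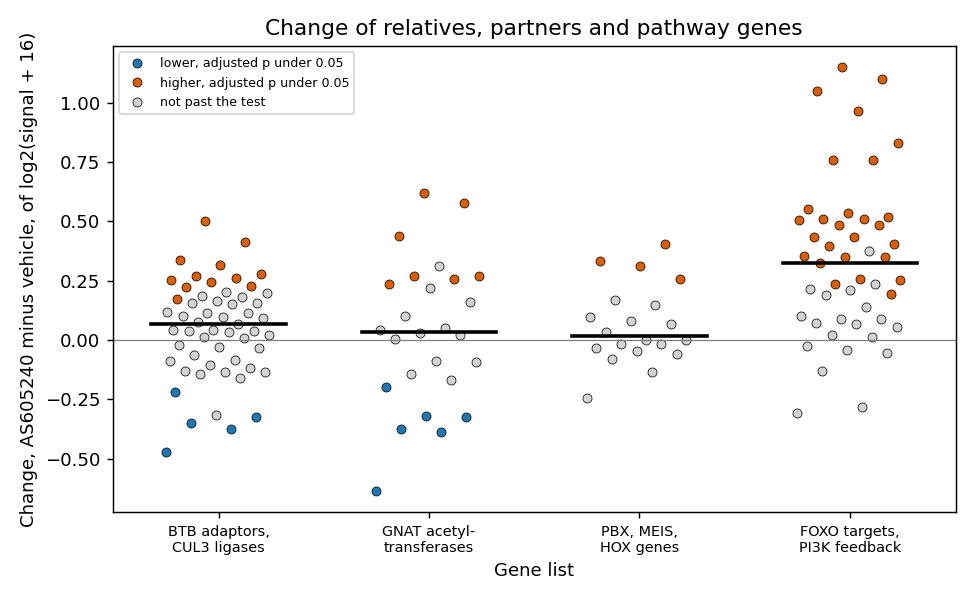
Mean change with AS605240 on the scale log2(signal + 16) of each tested gene in 4 lists, with the median of each list as a black bar. Genes past an adjusted p under 0.05 are orange where higher and blue where lower. Medians lie at 0.066, 0.035 and 0.016 for the first 3 lists and at 0.33 for the FOXO targets and PI3K feedback genes.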

How the data were processed

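Expression was measured on 14 arrays, 1 with AS605240 and 1 with vehicle for each of 7 cell lines. Values were deposited as linear intensity, which the authors obtained by iterPLIER. The submitters' processing notes list PLIER and Affymetrix Expression Console (version 1.3.1.187). How arrays were normalized beforehand is not given in the sources. Here 16 was added and log2 taken. The number of arrays limits the precision.

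Symbols were updated through the gene ID for 41037 probe sets. Each gene was represented by its brightest probe set naming it alone. AS605240 was compared with vehicle with limma 3.58.1 in R 4.3.3, with cell line as a block since both arrays of a pair come from 1 line, and p-values were adjusted over all 19775 genes or 42892 probe sets. Both thresholds together mean a fold change over 1.5 with an adjusted p under 0.05. List members and neighbours were counted on the adjusted p alone. The script was tested on simulated data.

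The 3 genes and all lists were chosen with earlier results of these data known. Named genes were the 3 genes, the next 3 by mean change among called genes higher in every line, the 3 most alike of each gene over all and over vehicle arrays, the nearest tested neighbours and those past the adjusted p, up to 6 list genes past both thresholds by size (otherwise the smallest p), and ABTB2, the PBX genes, FOXO1 and FOXO3 where tested. RGS1, ABTB3, HOXB7 and the ranks around PBXIP1 were named after their values were seen. Alternatives were other offsets, quantile, median and spike-in centring, the mean of all probe sets, bright genes alone, no block, P12-ICHIKAWA and TALL-1 as 1 line, and each line left out. The spike-in set first included the Trpn probe sets, as planned. A set without them was added after those values had been seen, and both are given.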

Additional observations from a re-analysis of the deposited data

How the results depend on the processing

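The 3 genes rose under all 17 alternatives run, but the size depended on the offset and on the probe set. Many of these rises were fixed in advance. The genes were chosen on this contrast and rose in every line, so leaving out or merging lines could only give a rise. Dropping the block or the dim genes leaves their changes the same by construction. ABTB1 changed by 1.07 with an offset of 64 and by 0.59 as the mean of all its probe sets, and NATD1 by 0.71 and 0.57. By that mean ABTB1 ranked 121, NATD1 146 and PBXIP1 16. Leaving out 1 line gave 1.47 to 1.62 for ABTB1, 1.12 to 1.36 for NATD1 and 1.02 to 1.18 for PBXIP1, whose rank then was 6 to 11. With P12-ICHIKAWA and TALL-1 as 1 line the changes were 1.53, 1.23 and 1.12, with 183 genes higher and 92 lower. Genes called were 180 to 246 higher and 83 to 125 lower without 1 line. Lower calls were 0 to 2 in the FOXO list (2 without HPB-ALL, 1 without ALL-SIL) and 0 to 1 in the PBX list (1 without ALL-SIL).

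With an offset of 4, 362 genes were higher, and 7 of the BTB list. With an offset of 64, 72 genes were higher and 55 lower, and with the mean of probe sets 128 and 63, with 1 neighbour higher. The lower neighbours were 4 with an offset of 64, quantile normalization or bright genes alone. The PBX list had 1 lower gene with an offset of 64, quantile normalization, median centring or bright genes, and the FOXO list 1 with an offset of 64, median centring or bright genes. The groups overlapped for all 3 genes (0 without overlap, against 1) after quantile or either spike-in centring.

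Spike-in centring gave 61 genes higher and 439 lower, 0 and 10 neighbours, 1 and 18 of the BTB list, 3 and 10 of the GNAT list, 0 and 6 of the PBX list and 16 and 5 of the FOXO list. At the adjusted p alone, which the neighbour and list counts use, 2.95% of all genes were higher and 39.0% lower. Without the Trpn probe sets, a choice made after seeing the data, the spike-ins changed by 0.22 ± 0.17 (SD, 7 of 7 lines higher). The counts were then 54 genes higher and 508 lower, 0 and 11 neighbours, 1 and 19 of the BTB list, 2 and 10 of the GNAT list, 0 and 8 of the PBX list and 15 and 6 of the FOXO list. At the adjusted p alone, 2.57% of all genes were higher and 43.7% lower. The cause of these shifts was not tested.

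Without the replicate block, in which the 2 arrays of a line are not paired, 13 genes were higher and 4 lower, and 0 neighbours and 0 genes of each list were called in either direction.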
